A study of Drosophila melanogaster with 9 samples.

Results

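Odorant-binding proteins (Obps) are small soluble proteins that support cells secrete into the lymph around the dendrites of chemosensory neurons, where they bind odorants and tastants. The 34 *Obp* genes described here are those that remain of the 51 genes named *Obp* when the *Obp56* cluster and 8 genes known mainly from the adult antenna are left out. They were chosen by gene name alone, from 17421 genes in all. By family background, 13 of them encode Plus-C proteins, with more cysteines than the Classic type, 6 encode Minus-C proteins, with fewer, and 2 encode proteins with a pair of Obp domains. The 13 other genes were grouped as Classic, and no protein sequence was used to check this grouping. The place of *Obp83g*, counted here as Classic, is in doubt, and it may belong to the Minus-C type.

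RNA was measured by RNA-Seq in dorsal organs, which carry the larval olfactory sensilla with their olfactory receptor neurons (ORNs), from *Drosophila melanogaster* at the third larval instar. The 5 *Orco* mutant samples were w1118 with 2 copies each of Orco-Gal4 and UAS-mCD8-GFP and were homozygous for orco1, a null allele of the odorant receptor co-receptor gene, and the 4 wild-type samples had the same w1118 background, driver and reporter without orco1. Orco-Gal4 is active in ORNs, so GFP marked these neurons, but each sample pooled 20 whole organs picked by that label and held ORNs, support cells and any attached tissue. Each sample came from its own isolation and gave 1 library. In such samples, fewer cells of a type and less RNA per cell cannot be told apart.

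The libraries held 4090489 to 9157628 estimated counts in *Orco* mutant and 4432832 to 7005190 in wild-type samples, of which genes named as rRNA took 33.3% to 53.8%. *Orco* had 0 to 16 counts per *Orco* mutant library and 1025 to 1819 per wild-type library, which fits the labels. Markers of glia, of support cells and of Ir21a-type cool cells were present in every library. The summed glial markers lay at 1168 to 2416 CPM in *Orco* mutant and 992 to 1473 CPM in wild-type samples (CPM stands for counts per 1000000 after scaling of library sizes with TMM). Cool cell markers summed to 276 to 806 CPM in *Orco* mutant and 194 to 324 CPM in wild-type samples. Markers of neighbouring tissue were uneven between libraries: fat body genes summed to 1.14 to 193 CPM in *Orco* mutant and 10.7 to 202 CPM in wild-type samples, salivary gland genes to 0.252 to 102 and 0 to 717 CPM, hemocyte genes to 0.252 to 95.5 and 0 to 40.6 CPM, and epidermal genes to 261 to 8545 and 812 to 2092 CPM. The 5 ORN markers summed to 0.121 to 26.4 CPM in *Orco* mutant and 289 to 469 CPM in wild-type samples, and the 4 of them other than *Orco*, all odorant receptor genes, to 0 to 26.4 and 58.0 to 96.0 CPM, with no overlap between the genotypes. Over the 12 marker lists only *Orco* itself passed the test of the genotypes for a single gene.

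Of the 34 *Obp* genes, 28 had a count in at least 1 library, and 7 had counts in all 9. *Obp49a* exceeded every other gene of the set in every library. The 6 genes with no count were *Obp8a*, *Obp22a*, *Obp50a*, *Obp51a*, *Obp58d* and *Obp99d*, of which *Obp22a* and *Obp51a* are known from the male reproductive tract of adult flies. A count of 0 allows a level of up to 0.245 to 0.824 CPM in an *Orco* mutant library and 0.388 to 0.666 CPM in a wild-type library (3 counts, counting error only). The 28 genes included 11 of the 13 Classic, 4 of the 6 Minus-C, 11 of the 13 Plus-C and both double-domain genes. Counts were often confined to few libraries, and 12 of the 28 genes drew most of their counts from a single library.

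**Figure D1:**
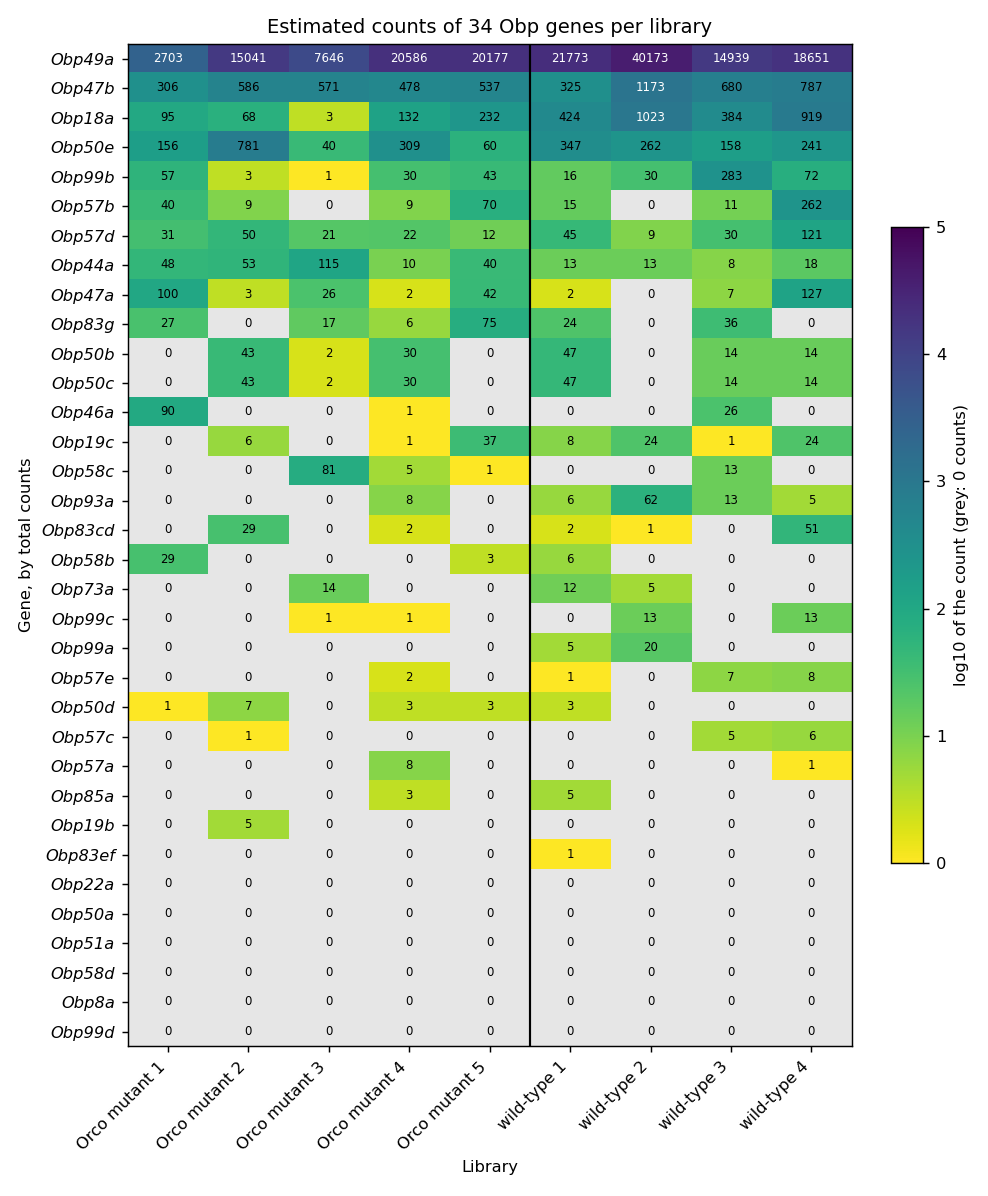
Estimated counts of the 34 *Obp* genes (rows, ordered by total counts) in the 5 *Orco* mutant and 4 wild-type libraries (columns), with colour on a log10 scale and grey for 0 counts. *Obp49a* leads every column, with 2703 to 20586 counts in *Orco* mutant and 14939 to 40173 counts in wild-type libraries, and the 6 lowest rows are empty.

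An *Orco* mutant library held counts of 13, 16, 14, 22 and 14 of the genes (replicates 1 to 5, mean 15.8 ± 3.63, SD), against 22, 13, 18 and 18 in the wild-type libraries (replicates 1 to 4, mean 17.8 ± 3.69, SD). The ranges overlapped. The number of all genes detected ordered them only in part. *Orco* mutant 4 and wild-type 1, each with the most genes detected in its genotype (10935 and 9499), both held 22 of the set. *Orco* mutant 2, with 10148 genes detected, held 16 of the set and wild-type 4, with 8975, held 18. With every library thinned to the smallest, 12.5 to 18.7 genes were expected in *Orco* mutant and 12.7 to 21.7 in wild-type libraries. At a minimum of 5 counts the numbers were 9 to 14 genes in *Orco* mutant and 12 to 17 in wild-type libraries.

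**Figure D2:**
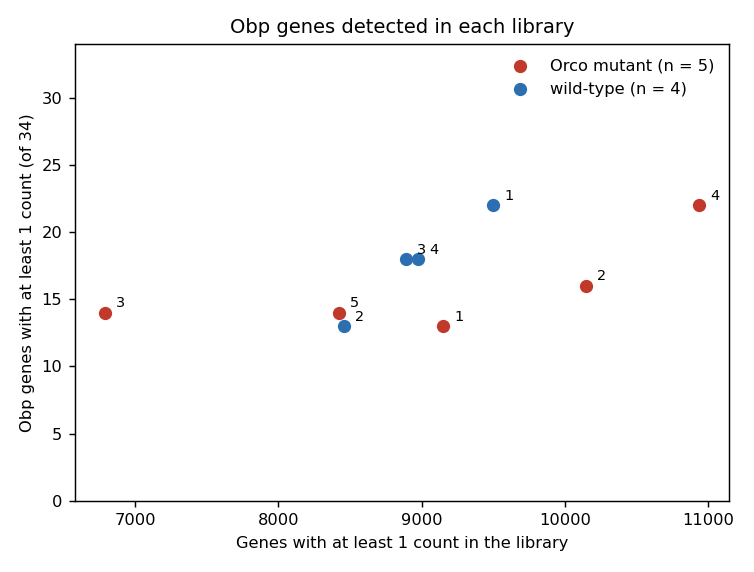
Number of the 34 *Obp* genes with at least 1 count (vertical axis) against the number of all genes with a count (horizontal axis), 1 point per library, labelled by replicate number. The 5 *Orco* mutant libraries span 13 to 22 genes and the 4 wild-type libraries the same range.

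The level of the whole set followed *Obp49a*, a Plus-C gene on chromosome 2R from 12690059 to 12690955 (Release 6 genome), whose protein acts in the taste organs of adult flies in the suppression of sweet responses by bitter compounds. *Obp49a* stood at 327, 1230, 2099, 2590 and 4982 CPM in *Orco* mutant and at 4833, 7103, 3148 and 2414 CPM in wild-type samples. The lowest 3 values were from *Orco* mutants, but *Orco* mutant 5 exceeded 3 of the wild-type samples and the groups overlapped. By mean level *Obp49a* ranked 25 among all genes in *Orco* mutant and 19 in wild-type samples, and within each library its count was 8.83 to 43.1 times that of the next gene of the set in *Orco* mutant and 20.3 to 51.4 times in wild-type samples. It contributed 73.4% of the counts of the set in *Orco* mutant 1 (exact Clopper-Pearson 95% interval 71.9% to 74.8%) and 89.5% to 94.96% in the other *Orco* mutant libraries, against 87.4% to 94.1% in wild-type libraries. Its log2 fold change, *Orco* mutant over wild-type, was -0.96 (standard error, SE, 0.59, 95% interval -2.23 to 0.31, edgeR adjusted p = 0.997 over all genes), so *Obp49a* did not pass. Without *Orco* mutant 5 the value was -1.49 with an unadjusted edgeR p of 0.0207 and an adjusted p of 0.634. Without wild-type 2 it was -0.63 with an unadjusted edgeR p of 0.337.

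Summed over the 34 genes, the level was 446, 1367, 2345, 2728 and 5267 CPM in *Orco* mutant (mean 2431 ± 1817, SD, n = 5) and 5134, 7569, 3504 and 2761 CPM in wild-type samples (mean 4742 ± 2129, SD, n = 4), and the groups overlapped. With *Obp49a* left out, a sum chosen after the values were seen, it was 119, 138, 245, 137 and 285 CPM in *Orco* mutant and 301, 466, 356 and 347 CPM in wild-type samples, and here every *Orco* mutant sample lay below every wild-type sample. This sum is made mostly of *Obp47b*, whose level is uncertain as described below, *Obp18a* and *Obp50e*, and no test was made of it. With *Obp18a* left out as well the groups overlapped, at 107 to 245 CPM in *Orco* mutant and 206 to 285 CPM in wild-type samples. The set supplied 0.898% to 8.001% of the counts of all 51 *Obp* genes in *Orco* mutant and 3.92% to 15.4% in wild-type libraries.

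Enough counts for a test of the genotypes were found for 12 of the 34 genes: 5 grouped as Classic, with *Obp83g* among them, 2 Minus-C and 5 Plus-C. None passed the edgeR test at an adjusted p of 0.05, as 0.0368% of the 8160 genes tested did, and 1 of the 12 had an unadjusted p under 0.05, against 4.96% of all tested genes. DESeq2, which tested 25 of the 34 genes, called 0, against 1.17% of the genes it adjusted, and had 3 at an unadjusted p under 0.05 (*Obp18a*, *Obp44a* and *Obp93a*, the last outside the 12), against 7.56%. limma-voom called 0 of the 12, against 0.147%, and had 3 at an unadjusted p under 0.05, against 8.31%. Fold changes were negative for 9 of the 12 and positive for 3, with a median of -1.01, whereas 50.1% of all tested genes were negative and their median was -0.00. The 12 include *Obp50b* and *Obp50c*, which had identical counts, and with these as 1 gene 8 of 11 were negative and the median was -0.96. The intervals of 11 of the 12 included 0, and the widest, that of *Obp83g*, ran from -3.25 to 4.75, so changes of several fold in either direction were not detectable for such genes. Samples of 1 genotype varied by nearly as much as the mean of a gene (common biological coefficient of variation 0.996).

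**Figure D3:**
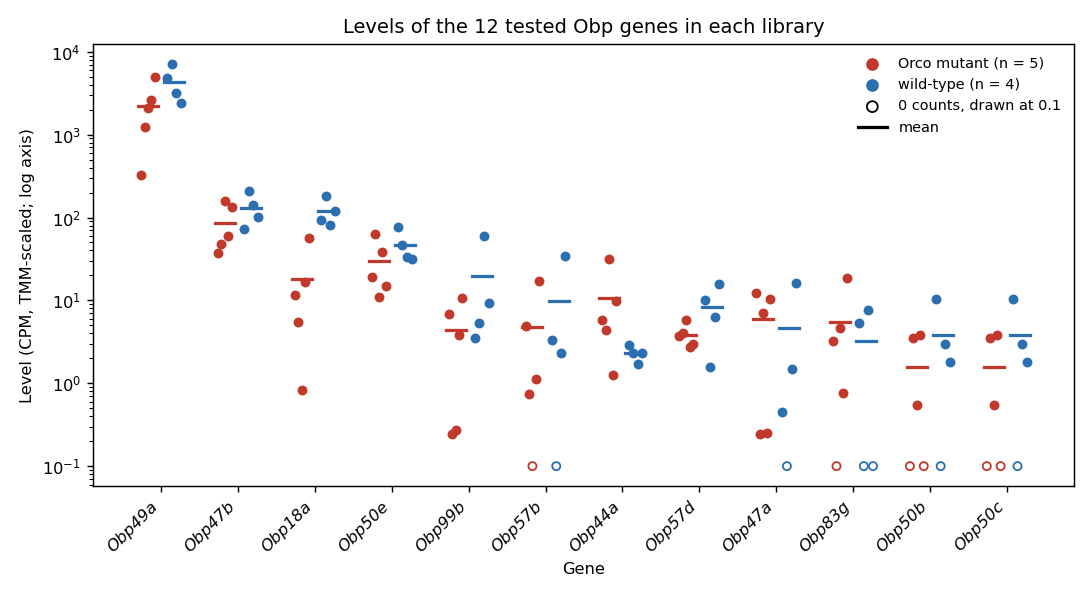
Level of each tested *Obp* gene in every library (CPM on a log axis, *Orco* mutant points left of wild-type points; horizontal bars are means, open symbols mark 0 counts and are drawn at 0.1). *Obp18a* is the gene whose points do not overlap between the genotypes, at 0.824 to 57.3 CPM in *Orco* mutant and 80.9 to 181 CPM in wild-type samples.

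*Obp18a*, a Classic gene on chromosome X from 19135081 to 19135868, was the member with the smallest p and the only one of the 12 whose libraries did not overlap between the genotypes. It had 95, 68, 3, 132 and 232 counts in *Orco* mutant and 424, 1023, 384 and 919 counts in wild-type libraries. These counts correspond to 11.5, 5.56, 0.824, 16.6 and 57.3 CPM in *Orco* mutant and 94.1, 181, 80.9 and 119 CPM in wild-type samples. *Orco* mutant 3 was the lowest and *Orco* mutant 5 the highest of its group, still below the lowest wild-type sample. All 5 *Orco* mutant samples were therefore lower, as was the case for 2.67% of all tested genes, while 1.18% were higher in every *Orco* mutant sample. The log2 fold change was -2.70 (SE 0.82, 95% interval -4.48 to -0.91, unadjusted p = 0.00621, edgeR adjusted p = 0.654), so the difference did not pass over all genes, and it ranked 77 of the tested genes by p. Without *Orco* mutant 5 the log2 value was -3.77 (edgeR adjusted p = 0.124). Across 18 other settings the adjusted p ranged between 0.0794, with limma-voom, and 0.99999. The summed support cell markers, at 90.3 to 222 CPM in *Orco* mutant and 113 to 149 CPM in wild-type samples, overlapped between the genotypes, and *Orco* mutant 3, lowest in *Obp18a*, had the highest of these sums. The ORN markers other than *Orco* did separate the genotypes, as given above, but all are odorant receptor genes, so their sum is no measure of ORN number. Neuronal markers overlapped, at 181 to 522 CPM in *Orco* mutant and 188 to 422 CPM in wild-type samples. *Orco* mutant 5 was the highest *Orco* mutant in *Obp18a* and in the sum of these receptor genes (26.4 CPM). It was also highest in the neuronal, glial, epidermal, tracheal, fat body and salivary gland sums, but not in the support cell, cool cell, hemocyte or muscle sums. The part of any of these cells in the *Obp18a* level was not tested.

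Among the Plus-C genes, *Obp47b* and *Obp50e* were the next most abundant after *Obp49a*. *Obp47b* stood at 37.1, 47.9, 157, 60.1 and 133 CPM in *Orco* mutant and 72.1, 207, 143 and 102 CPM in wild-type samples, with a log2 fold change of -0.60 (SE 0.48, edgeR adjusted p = 0.997) and overlapping groups. All 611 exonic bases of *Obp47b* (chromosome 2R, 11302247 to 11302987) lie within exons of *CG7741* on the other strand. The libraries do not mark strand, so reads from these bases cannot be assigned to either gene by strand. The count of *Obp47b* was 0.827 to 1.26 times that of *CG7741* in every library, so the level of *Obp47b* is uncertain. With both summed, a choice made after seeing the data, the locus had a log2 fold change of -0.63.

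*Obp50e* belongs to a cluster of 5 Plus-C genes on chromosome 2R from 14370331 to 14375385, and it supplied 88.1% of the 2671 counts of the cluster. Its level was 18.9, 63.8, 11.0, 38.9 and 14.8 CPM in *Orco* mutant and 77.0, 46.3, 33.3 and 31.2 CPM in wild-type samples. *Orco* mutant 2 exceeded 3 of the wild-type samples and the log2 fold change was -0.67 (SE 0.60, edgeR adjusted p = 0.997). Of its neighbours, *Obp50a* had no count and *Obp50d* had 17. *Obp50b* and *Obp50c* share all 1648 exonic bases and had identical counts in every library, so they cannot be told apart. Summed, they had 0, 86, 4, 61 and 0 counts in *Orco* mutant and 94, 0, 27 and 27 counts in wild-type libraries. The log2 fold change of each was -1.25 (SE 1.68, edgeR adjusted p = 0.997), and it was 0.01 without wild-type 1.

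The untested Plus-C genes were counted in few libraries. *Obp46a* had 90, 0, 0, 1 and 0 counts in *Orco* mutant and 0, 0, 26 and 0 in wild-type libraries. *Obp58c* had 0, 0, 81, 5 and 1 counts in *Orco* mutant and 0, 0, 13 and 0 in wild-type libraries. In both genes a single *Orco* mutant library and a single wild-type library held nearly all counts. *Obp58b*, the neighbour of *Obp58c*, had 29, 0, 0, 0 and 3 counts in *Orco* mutant and 6, 0, 0 and 0 in wild-type libraries, so the pair was not high in the same libraries. *Obp93a* differed from these, with 0, 0, 0, 8 and 0 counts in *Orco* mutant but 6, 62, 13 and 5 in wild-type libraries. It was thus counted in 1 of 5 *Orco* mutant and 4 of 4 wild-type libraries, although *Orco* mutant 4, at 1.01 CPM, exceeded wild-type 4, at 0.647 CPM. The exons of *Obp93a* overlap those of *CG5793* on the other strand over 83.2% of their length, so the gene these counts come from is uncertain. *Obp85a* had 8 counts in all.

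Of the genes grouped as Minus-C, *Obp99b* and *Obp44a* were tested, with fold changes of opposite sign, and neither passed. *Obp99b*, known in adult flies from its sex-dependent expression in fat tissue of the head, stood at 6.91, 0.245, 0.275, 3.78 and 10.6 CPM in *Orco* mutant and 3.55, 5.30, 59.6 and 9.32 CPM in wild-type samples. Wild-type 3 held 52.9% of its counts, and this library also had the highest fat body sum (202 CPM) and salivary gland sum (717 CPM). *Orco* mutant 5 had a fat body sum of 193 CPM and a salivary gland sum of 102 CPM, with *Obp99b* at 10.6 CPM. The part of these tissues in the level was not tested. The log2 fold change was -2.16 (SE 1.28, 95% interval -4.92 to 0.61, edgeR adjusted p = 0.997), and it was -0.49 without wild-type 3. Of its counts, 67.0% were assigned to transcript Obp99b-RA and 33.0% to Obp99b-RB. This division rests on wild-type 3, which held 261 of the 359 counts of Obp99b-RA. Obp99b-RB had more counts than Obp99b-RA in wild-type 2, wild-type 4 and *Orco* mutant 4, and fewer in the remaining libraries.

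*Obp44a*, which is expressed in glia of the fly nervous system, stood at 5.82, 4.33, 31.6, 1.26 and 9.88 CPM in *Orco* mutant and 2.89, 2.30, 1.69 and 2.33 CPM in wild-type samples. It was higher than every wild-type sample in 4 of 5 *Orco* mutant samples and lower in *Orco* mutant 4. The log2 fold change of 2.20 was the largest positive one among the 12 genes (SE 1.17, 95% interval -0.33 to 4.73, edgeR adjusted p = 0.997), and it was 1.21 without *Orco* mutant 3. *Obp44a* was highest in *Orco* mutant 3, where the glial markers summed to 1168 CPM. This sum was the lowest among the *Orco* mutant libraries and lay within the wild-type range of 992 to 1473 CPM. The part of glia in the *Obp44a* level was not tested. On the other strand, *Pabp2* overlaps 19.1% of the exonic bases of *Obp44a*.

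*Obp99d*, next to *Obp99b* on chromosome 3R, had no count, and *Obp99a* and *Obp99c*, which form a separate pair on the same arm, had 53 counts together. *Obp99a* had 0 counts in all *Orco* mutant libraries and 5, 20, 0 and 0 counts in wild-type libraries. With counts pooled over each group and 3 counts as the floor, it was 13.3-fold lower in *Orco* mutants. This ratio leaves out the spread between libraries, so it is no lower bound on a difference between the genotypes. Of the 25 counts of *Obp99a*, 20 came from wild-type 2, so the ratio rests mostly on 1 library. *Obp99c* had 0, 0, 1, 1 and 0 counts in *Orco* mutant and 0, 13, 0 and 13 in wild-type libraries.

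The Classic genes of the *Obp57* group have been studied in the taste organs of flies, and *Obp57d* and *Obp57e* in the responses of *Drosophila* species to fruit acids. *Obp57b* stood at 4.85, 0.736, 0, 1.13 and 17.3 CPM in *Orco* mutant and 3.33, 0, 2.32 and 33.9 CPM in wild-type samples, so that 1 library was high in each genotype. Its log2 fold change was -1.05 (SE 1.66, edgeR adjusted p = 0.997), and it was 1.35 without wild-type 4 and -2.55 without *Orco* mutant 5. *Obp57b* took 95.2% of the 437 counts of the 3 adjacent genes *Obp57a* to *Obp57c*, and *Obp57a* had 9 counts and *Obp57c* 12.

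*Obp57d* was found in all 9 libraries, at 3.76, 4.09, 5.77, 2.77 and 2.96 CPM in *Orco* mutant and 9.99, 1.59, 6.32 and 15.7 CPM in wild-type samples. The *Orco* mutant samples lay within the wild-type range, and the log2 fold change was -1.12 (SE 1.02, edgeR adjusted p = 0.997). All 1488 exonic bases of *Obp57d* are also exonic in *Cpr57A*, a gene named as a cuticle protein on the same strand, and *Obp57d* received 3.08% to 13.6% as many counts as *Cpr57A*. Its level is therefore an estimate of how reads divide between both. *Obp57e*, next to it, had 18 counts in all.

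*Obp47a* and *Obp83g* were high in some libraries of each genotype and near 0 in others. *Obp47a* stood at 12.1, 0.245, 7.14, 0.252 and 10.4 CPM in *Orco* mutant and 0.444, 0, 1.47 and 16.4 CPM in wild-type samples (log2 fold change 0.38, SE 1.64, edgeR adjusted p = 0.997), and 96.8% of its counts were from transcript Obp47a-RA. *Obp83g* stood at 3.27, 0, 4.67, 0.755 and 18.5 CPM in *Orco* mutant and 5.33, 0, 7.59 and 0 CPM in wild-type samples (log2 fold change 0.75, SE 1.84, edgeR adjusted p = 0.997). For neither gene was a difference between the genotypes detectable, and both signs turned when 1 library was left out, to -0.035 for *Obp47a* without wild-type 2 and to -0.58 for *Obp83g* without *Orco* mutant 5. *Obp83g* supplied 68.3% of 271 counts of a cluster on chromosome 3R from 6108134 to 6112302 that also holds both double-domain genes. Of these, *Obp83cd* had 0, 29, 0, 2 and 0 counts in *Orco* mutant and 2, 1, 0 and 51 in wild-type libraries, and *Obp83ef* had 1 count, in wild-type 1.

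Among the untested Classic genes, *Obp19c* had 0, 6, 0, 1 and 37 counts in *Orco* mutant and 8, 24, 1 and 24 in wild-type libraries. It was found in 3 of 5 *Orco* mutant and all 4 wild-type libraries, but *Orco* mutant 5, at 9.14 CPM, had the highest level. *Obp19b*, its neighbour on chromosome X, had 5 counts, all from *Orco* mutant 2. *Obp73a* had 0, 0, 14, 0 and 0 counts in *Orco* mutant and 12, 5, 0 and 0 in wild-type libraries.

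Among the 12 tested genes ordered by level per kb of transcript, only the lead of *Obp49a* stood clear of its neighbour in both genotypes. Per kb, *Obp49a* averaged 2879 ± 2252 CPM in *Orco* mutant (SD, n = 5) and 5608 ± 2669 in wild-type samples (SD, n = 4). *Obp47b* followed with 142 ± 88.5 in *Orco* mutant and 215 ± 95.9 in wild-type samples, a level that is uncertain because of the overlap with *CG7741*. *Obp50e* came next in *Orco* mutant samples with 39.1 ± 29.2 CPM per kb, before *Obp18a* with 25.0 ± 30.7. In wild-type samples *Obp18a* came before *Obp50e*, with 162 ± 60.4 and 62.2 ± 28.0 CPM per kb, and there the ranges of these 2 genes did not overlap. Ranges over the samples overlapped between all other neighbours among the tested genes in either order, down to *Obp50b* and *Obp50c* with 0.951 and 2.31 CPM per kb in *Orco* mutant and wild-type samples. Counts of the exons that *Obp50b* and *Obp50c* share were divided equally between both, so each of these values is below the level of the shared locus.

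**Figure D4:**
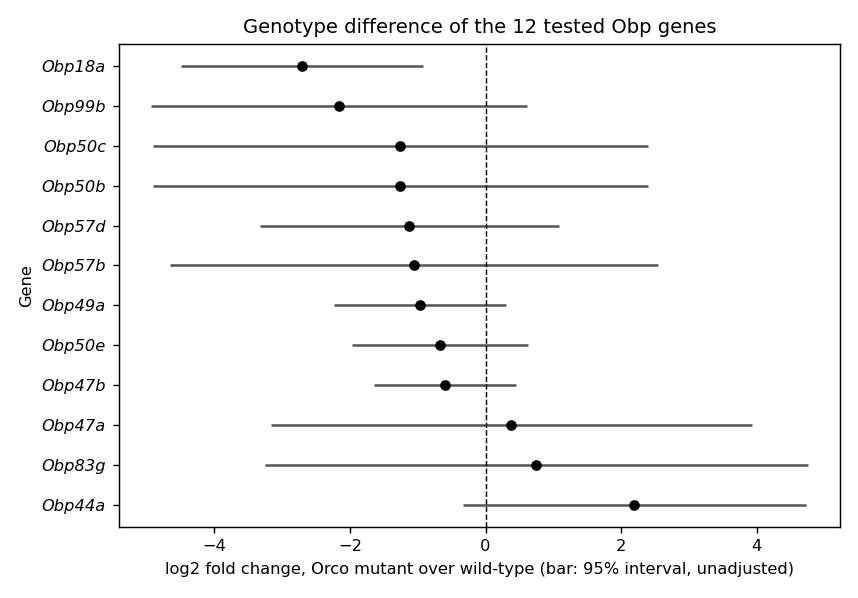
Log2 fold change of each tested *Obp* gene, *Orco* mutant over wild-type (points), with unadjusted 95% intervals (bars). Points of 9 genes lie below 0 and of 3 above, the interval of *Obp18a* (-4.48 to -0.91) is the one that excludes 0, and no gene passed after adjustment over all genes.

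Set beside the other *Obp* genes, the set held 12 tested genes with a median log2 fold change of -1.01, the *Obp56* cluster 6 with a median of -1.72, all negative, and the adult antenna list, with *lush* added, 4 with a median of 0.60. None of these genes passed the test. The summed level of the set was 446 to 5267 CPM in *Orco* mutant and 2761 to 7569 CPM in wild-type samples. That of the *Obp56* cluster was 3361 to 12723 and 20019 to 25459 CPM, and that of the antenna list 33190 to 93081 and 16207 to 65884 CPM. The range of the set overlapped that of the cluster in *Orco* mutants alone. The sum of the antenna list was nearly all *Obp28a*, with a mean of 52226 CPM in *Orco* mutant and 36868 CPM in wild-type samples. Next in that list were *Obp83a* with a mean of 133 CPM in *Orco* mutant and *Obp83b* with 59.1 CPM in wild-type samples. Among all 51 *Obp* genes, *Obp49a* ranked 3 by mean level in *Orco* mutant and 5 in wild-type samples. Whether the median differed between the lists was not tested. Of the 7 sensillar genes listed beside the *Obp* genes, such as *Snmp1* and *Est-6*, 3 were tested and none passed. The 7 genes summed to 34.2 to 190 CPM in *Orco* mutant and 68.2 to 110 CPM in wild-type samples, and *Jhedup* among them had no count.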

How the data were processed

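Dorsal organ RNA was amplified with Smart-seq2, which does not mark strand or single molecules, and sequenced as single-end reads. The authors processed reads with CASAVA 1.8.2 and cutadapt 1.9.1 (per the labels and methods), used kallisto 0.43.0 and the FlyBase transcripts to estimate a count for each transcript, with gene sums from tximport. The deposited files hold these estimated counts per gene and per transcript, not normalized; both were used here. A further *Orco* mutant sample that was excluded for few reads was not analysed here.

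Estimated counts were rounded to whole numbers and genes kept with filterByExpr (minimum count 10, minimum total 15), which left 8160 of 12748 genes with a count. Libraries were scaled with TMM and genotypes compared with edgeR 4.0.16 (R 4.3.3), quasi-likelihood test, two-sided, threshold 0.05 on the Benjamini-Hochberg adjusted p over all tested genes. Fold changes are fitted coefficients, and standard errors come from the F statistic. Floors and Clopper-Pearson intervals cover counting error only, and reads amplified from 1 molecule are not told apart. Lengths for levels per kb are the means of transcript lengths weighted by counts. Gene positions follow Ensembl's gene models for Release 6. The labels give no batch.

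The members, lists and tests were chosen with earlier results of these data known. Values in every library are given for tested members and for untested members with at least 30 counts, and members whose start lies within 20 kb of another form a cluster. The description of the sum without *Obp49a*, of the overlapping genes and of single low members was chosen after values were seen. Marker lists covered ORNs, cool cells, neurons, support cells, glia, fat body, hemocytes, muscle, salivary gland, trachea, epidermis and 7 sensillar genes beside the *Obp* genes. Neuronal markers summed to 181 to 522 CPM in *Orco* mutant and 188 to 422 CPM in wild-type samples, muscle markers to 57.0 to 1177 and 202 to 1625, and tracheal markers to 228 to 639 and 88.8 to 560. Alternatives were DESeq2 1.42.0, limma-voom (limma 3.58.1), RLE size factors, no filter, 10 counts in at least 5 libraries, rRNA genes left out, the replicate number as a block and leaving out each library, and for the summed level totals without rRNA genes and without TMM. The sums of *Obp50b* with *Obp50c* and of *Obp47b* with *CG7741*, and library totals with rRNA genes and without TMM for the summed level, were added after seeing the data.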

Additional observations from a re-analysis of the deposited data

Results flagged for a closer look

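Of 42 groups of libraries examined (19 genes with at least 30 counts, the number of genes with a count and the summed level, each within a genotype), 18 had a highest library far from the others. Chance gives about 1 group in 20 for evenly spread values, but a gene counted in a single library is picked out by construction, as in 5 of the 18, so the number of such groups says little for genes of few counts. Counts of low genes amplified from little RNA were uneven between libraries in both genotypes, and the cause was not tested.

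In *Orco* mutant 5, *Obp18a* was high at 57.3 CPM (0.824 to 16.6 in the other *Orco* mutant libraries), as were *Obp19c* at 9.14, *Obp57b* at 17.3 and *Obp83g* at 18.5 CPM. This library also had the highest epidermal, neuronal, glial and tracheal marker sums of all libraries, at 8545, 522, 2416 and 639 CPM. The part of any of these tissues in the levels was not tested. In *Orco* mutant 3, *Obp44a* stood at 31.6 CPM (1.26 to 9.88 in the others), *Obp58c* at 22.2 and *Obp73a* at 3.84 CPM. In *Orco* mutant 1, *Obp46a* stood at 10.9 and *Obp58b* at 3.51 CPM. In *Orco* mutant 2, *Obp83cd* stood at 2.37 CPM, and in *Orco* mutant 4, *Obp93a* stood at 1.01 CPM with 0 counts in the others.

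In wild-type 3, *Obp99b* stood at 59.6 CPM (3.55 to 9.32 in the other wild-type libraries), *Obp46a* at 5.48 and *Obp58c* at 2.74 CPM. In wild-type 4, *Obp57b* stood at 33.9 CPM (0 to 3.33 in the others), *Obp47a* at 16.4 and *Obp83cd* at 6.601 CPM. In wild-type 1, *Obp58b* stood at 1.33 CPM with 0 counts in the others.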

How the results depend on the processing

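No *Obp* gene of the set was called under any of 18 alternatives, in which 11 to 28 of the genes were tested. Over all genes, 3 were called with edgeR, 106 with DESeq2, 12 with limma-voom, 5 with no filter and 1 to 3 when 1 library was left out. Of 210 fold changes of single genes under the alternatives, 205 kept their sign and their side of the threshold. The 5 that turned were *Obp83g* (-0.58 without *Orco* mutant 5, range -0.58 to 1.56 over the libraries left out), *Obp50b* and *Obp50c* (0.0096 each without wild-type 1, range -1.86 to 0.0096), *Obp47a* (-0.035 without wild-type 2, range -0.035 to 3.24) and *Obp57b* (1.35 without wild-type 4, range -2.55 to 1.35), and none of these genes passed in any fit. The cause was not tested. *Obp18a* kept its direction, with log2 fold changes of -4.22 to -2.40 and adjusted p of 0.0794 to 0.99999 over the alternatives, and of -3.77 to -2.40 when 1 library was left out. The mean number of genes with a count in *Orco* mutant libraries was 15.8, and 11.8 at a minimum of 5 counts. The mean summed level was 2431 CPM in *Orco* mutant and 4742 CPM in wild-type samples. It was 3841 and 8264 over library totals without rRNA genes and without TMM, and 2248 and 4791 over totals with rRNA genes and without TMM, the second setting added after seeing the data. The samples share replicate numbers 1 to 4, but same-numbered samples showed no sign of deviating together (correlations of 0.03, -0.10, -0.02 and -0.02). So few noisy libraries cannot establish that a pairing by number is absent. With the replicate number as a block, which leaves out *Orco* mutant 5, 0 of the set and 4 of all genes were called, against 3 without the block on the same samples, and *Obp18a* stood at -4.22 on the log2 scale (edgeR adjusted p = 0.322). Genes with few counts limited what could be detected, since 16 genes with a count were not tested.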
